A study of Mus musculus with 2 samples.

Results

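A cluster of repeated, computationally predicted genes lies between 43 and 44 Mb of mouse chromosome 14 (build mm10, also called GRCm38), and this stretch was crowded with peaks of DNA N6-methyladenine (6mA) in embryonic brain. The peaks were taken from 2 lists by position alone. A peak belonged to the cluster where its midpoint lay in that 1 Mb window, which gave 41 of 1006 peaks at embryonic day 8.5 (E8.5) and 62 of 1239 at embryonic day 9.5 (E9.5), 103 of 2245 in all. Window and genes were chosen by the number of peaks in both lists, so those numbers are a description and carry no test. The gene set comprised 10 protein-coding predicted genes, in order along the chromosome Gm10376, Gm8104, Gm8094, Gm8126, Gm8127, Gm8138, Gm5799, Gm10375, Gm8165 and Gm16506, with Ear1, Ear10 and Ang5 as neighbours.

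The study mapped 6mA in 1 library of E8.5 brain and 1 of E9.5 brain, both labelled as untreated, by MeDIP-seq, the sequencing of sheared DNA enriched with a 6mA antibody. Strain, sex and the number of embryos behind a library are not given in the sources used here, and embryos with neural tube defects were not analysed here. The stage of each list rests on the sample titles, because the library names in the peak files give none, and with DNA alone the labelled tissue could not be set against marker genes. After duplicate filtering 15375941 fragments were left for E8.5, 15349825 for E9.5 and 9603633 for the input library that served both. Each stage has 1 library, so stages are set side by side without a test. The 95% intervals given are exact and reflect counting error alone.

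6mA is an adenine that carries a methyl group. It is common in bacterial DNA, and its abundance and role in mammalian DNA are debated. Predicted genes with Gm names come from automated annotation, and most have no assigned function. Tandem families of this kind arise by repeated duplication of a stretch of chromosome, so short reads from one copy can match another equally well. Ear1 and Ear10 encode eosinophil-associated ribonucleases, and Ang5 encodes a member of the angiogenin ribonuclease family, secreted enzymes with antimicrobial activity in several family members.

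The repeats showed in the reference sequences of the gene starts. RefSeq (GRCm38.p6) start sequences, which run from 250 bases before to 50 bases after an annotated start, were found for 7 of the 10 genes, Gm8104, Gm8094, Gm8126, Gm8138, Gm5799, Gm8165 and Gm16506. They fell into sets of near copies, of which 3 are shown here so that near copies can be set beside the peaks around each of them. The first set holds the start of Gm8104 (chr14:43057552-43057851, plus strand) and the outer start of Gm8126 (chr14:43209043-43209342, plus strand), which matched at 96.8% of 218 aligned bases with 7 mismatches. All sequences are written 5′ to 3′ in the direction of transcription, and capitals mark substitutions against the first sequence of the set within the aligned stretch, while a gap base is not marked.
Gm8104: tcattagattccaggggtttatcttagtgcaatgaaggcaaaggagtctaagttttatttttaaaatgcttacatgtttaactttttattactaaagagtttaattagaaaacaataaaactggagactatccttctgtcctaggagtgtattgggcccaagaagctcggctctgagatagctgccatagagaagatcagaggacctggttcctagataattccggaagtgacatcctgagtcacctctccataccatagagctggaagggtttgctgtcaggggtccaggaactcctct
Gm8126 outer start: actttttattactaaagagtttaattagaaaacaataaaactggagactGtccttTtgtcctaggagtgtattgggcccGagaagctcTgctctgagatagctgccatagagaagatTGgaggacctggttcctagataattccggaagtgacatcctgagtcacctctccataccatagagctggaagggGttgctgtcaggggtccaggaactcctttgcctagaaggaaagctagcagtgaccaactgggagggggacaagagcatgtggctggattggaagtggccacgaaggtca

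The second set holds the inner start of Gm8126 (chr14:43258371-43258670, plus strand) and the start of Gm5799 (chr14:43543381-43543680, plus strand). All 259 aligned bases were identical, so no capitals appear, although the starts lie 285010 bp apart.
Gm8126 inner start: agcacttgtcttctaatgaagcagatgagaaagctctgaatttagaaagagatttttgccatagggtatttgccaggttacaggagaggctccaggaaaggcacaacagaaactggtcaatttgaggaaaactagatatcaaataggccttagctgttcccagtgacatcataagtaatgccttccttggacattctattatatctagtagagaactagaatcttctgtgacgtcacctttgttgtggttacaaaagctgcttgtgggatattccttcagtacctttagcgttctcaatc
Gm5799: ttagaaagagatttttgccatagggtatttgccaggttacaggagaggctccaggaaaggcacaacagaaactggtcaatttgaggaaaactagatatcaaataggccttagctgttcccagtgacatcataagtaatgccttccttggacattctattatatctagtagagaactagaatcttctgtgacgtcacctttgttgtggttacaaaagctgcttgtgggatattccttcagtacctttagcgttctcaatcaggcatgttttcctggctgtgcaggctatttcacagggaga

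The last set holds 3 starts on the minus strand, those of Gm8138 (chr14:43416350-43416649), Gm8165 (chr14:43677191-43677490) and Gm16506 (chr14:43727434-43727733). Gm8094, which has 3 annotated starts and is not printed, resembles this set, with 97.7% identity over 172 aligned bases between one of its starts and that of Gm16506. Gm8165 matched Gm8138 at 99.0% of 292 aligned bases with 3 mismatches, and Gm16506 matched it at 96.8% of 249 aligned bases with 7 mismatches and 1 gap base. This set and the second were also related, with 74.7% identity over 285 aligned bases between the inner start of Gm8126 and that of Gm8138.
Gm8138: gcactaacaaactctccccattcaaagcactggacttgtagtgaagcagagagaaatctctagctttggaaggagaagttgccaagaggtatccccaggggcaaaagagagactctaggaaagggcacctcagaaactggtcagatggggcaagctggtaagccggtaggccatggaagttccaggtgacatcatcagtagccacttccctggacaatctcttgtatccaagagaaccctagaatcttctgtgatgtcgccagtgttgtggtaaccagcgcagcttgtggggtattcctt
Gm8165: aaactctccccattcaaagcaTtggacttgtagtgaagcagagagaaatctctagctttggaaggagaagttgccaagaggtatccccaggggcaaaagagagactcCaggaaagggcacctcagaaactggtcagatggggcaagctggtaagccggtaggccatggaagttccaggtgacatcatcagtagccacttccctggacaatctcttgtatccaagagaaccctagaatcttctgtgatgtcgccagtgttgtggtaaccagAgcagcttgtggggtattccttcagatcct
Gm16506: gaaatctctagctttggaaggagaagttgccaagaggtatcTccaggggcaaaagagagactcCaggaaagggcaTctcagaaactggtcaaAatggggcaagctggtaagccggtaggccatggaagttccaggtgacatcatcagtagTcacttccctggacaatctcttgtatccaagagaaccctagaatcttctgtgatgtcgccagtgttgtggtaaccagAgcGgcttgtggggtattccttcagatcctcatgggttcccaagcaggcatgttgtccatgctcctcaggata

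The bodies of these genes recurred in length as well. Of the 16 protein-coding genes annotated in the window, 8 had bodies between 5394 and 5883 bp, 6 of them in the gene set (Gm10376, Gm8127, Gm8138, Gm10375, Gm8165 and Gm16506) and the others being 1700001F09Rik and Gm21162. Within 2 kb of these 8 genes a peak was found for 2 genes at E8.5 and for 4 at E9.5, beside 0.964% and 1.20% of all protein-coding genes, and nothing is read from this because the window was chosen for its peaks.

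The peaks were not spread evenly along the window. They gathered in the middle, as the map of peaks and gene bodies shows. Most lay farther than 2 kb from the 10 genes, but the share of the window that these genes span was not computed. Gaps of more than 50 kb between peaks were taken to split both lists into blocks, a choice made after the positions were seen. The densest block ran from 43238741 to 43417709, 178969 bp, and held 36 peaks of E8.5 (87.8% of 41) and 53 of E9.5 (85.5% of 62). A second block from 43504642 to 43546132 held 5 and 6 peaks. The 87 kb between them held no peak in either list. The 239 kb of the window below the densest block, which hold Gm10376, Gm8104, Gm8094 and part of the body of Gm8126, had no E8.5 and 2 E9.5 peaks. The 454 kb above the second block, which hold Gm10375, Gm8165, Gm16506, Ear1, Ear10 and Ang5, had no E8.5 and 1 E9.5 peak.

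**Figure D1:**
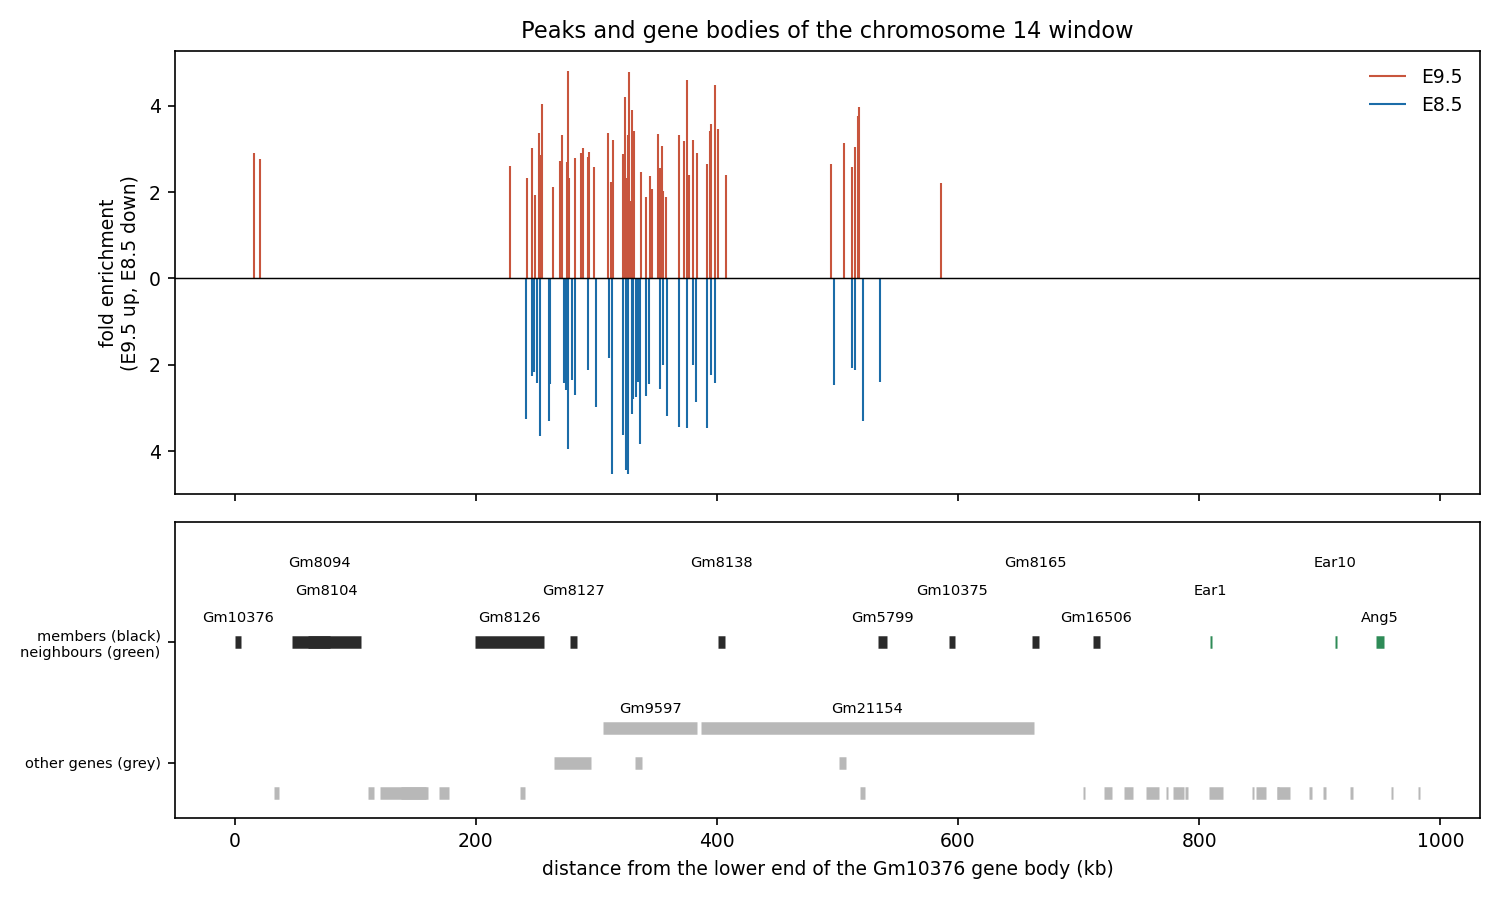
The upper panel plots each window peak at its summit with its fold enrichment, E9.5 upward and E8.5 downward, against the distance in kb from the lower end of the Gm10376 body, and the lower panel shows gene bodies on the same axis. Most peaks of both stages stand in one block of 178969 bp from Gm8126 to Gm8138, which includes the pseudogene Gm9597, and none stands over Gm8165, Gm16506 or the ribonuclease genes.

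Summits of neighbouring peaks lay a median of 3302 bp apart at E8.5 (quartiles 2358 and 7559 bp, 40 intervals) and 2835 bp apart at E9.5 (1643 and 4847 bp, 61 intervals). The closest summits were 981 and 564 bp apart. The lower ends of the 10 gene bodies lay a median of 69327 bp apart, with intervals from 13316 to 138175 bp, so several peaks stood within the distance of one gene to the next where peaks were present. Window peaks covered 26841 bp (E8.5) and 34505 bp (E9.5). When the lists were merged they formed 70 separate regions, of which 27 had peaks of both stages, 13 of E8.5 alone and 30 of E9.5 alone.

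Of the 10 genes, 4 had a peak within 2 kb of the gene body in at least one list, 3 in each. Such a peak was found for 0.964% (E8.5) and 1.20% (E9.5) of the 21887 placed protein-coding genes, and for 0.741% (E8.5) and 0.877% (E9.5) of all 49943 placed genes. Nothing is read from the difference because the window was chosen for its peaks. Gm8126 and Gm8127 had peaks at both stages, Gm8138 had peaks at E9.5 alone and Gm5799 at E8.5 alone. Gm10376, Gm8104, Gm8094, Gm10375, Gm8165 and Gm16506 had none in either list. The nearest peak to a body without one was 6106 bp from Gm10375 at E9.5, and the nearest to Gm16506 was 176115 bp off in the E8.5 list and 125726 bp off in the E9.5 list. Together the 10 genes took in 9 peaks of E8.5 (21.95% of 41, interval 10.6% to 37.6%) and 14 of E9.5 (22.6% of 62, 12.9% to 35.0%). The name of a predicted gene cluster describes the window, and the larger part of its peaks lay outside these genes. The share of the window that the extended gene bodies span was not computed, so nothing is read from these shares.

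**Figure D2:**
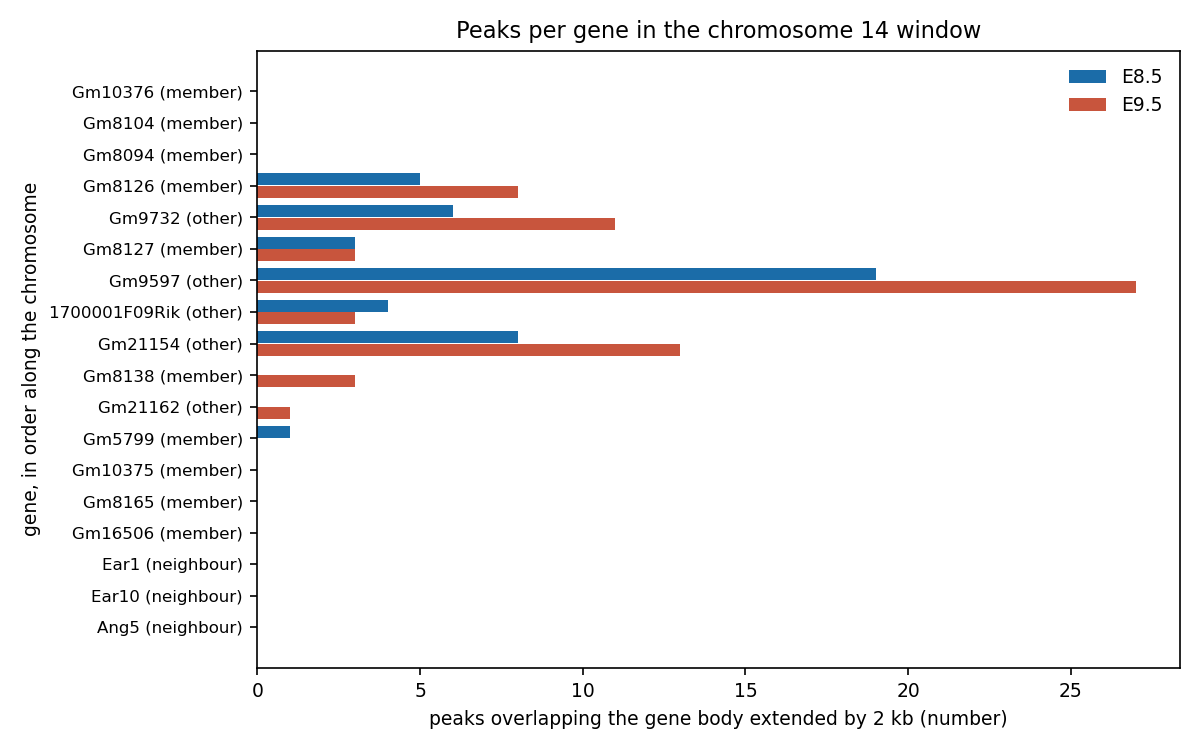
Number of E8.5 and E9.5 peaks that overlap each gene body extended by 2 kb, for the 10 genes of the set (member), the 3 ribonuclease neighbours and the 5 other genes named, in order along the chromosome. The pseudogene Gm9597 stands highest by number with 19 and 27 peaks, but numbers are not divided by the length of the body. A peak can count for more than 1 gene where bodies overlap.

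Gm8126 held the most peaks of the set, 5 at E8.5 and 8 at E9.5, all in the upper part of its body (43209293 to 43266470). Per 10 kb of its long extended body these were 0.817 and 1.31 peaks, fewer than the 3.13 of Gm8127 in each list. Pileup is the number of fragments that overlap at the summit. At E8.5 the pileups of the Gm8126 peaks were 17, 14, 15, 12 and 18 in order of position. The corresponding folds, the authors' ratio of pileup to background, were 3.27, 2.27, 2.16, 2.41 and 3.65. At E9.5 the pileups were 12, 18, 18, 24, 18, 14, 18 and 24, with folds between 1.92 and 4.03. The last of these (43265148 to 43265597) had the highest fold of the 30 E9.5 window peaks without a partner at E8.5, 4.03 at a pileup of 24 (interval 15.4 to 35.7) and a q-value, the authors' p-value corrected for multiple testing, of 5.41e-05. The overlapping peaks at 43263014 (E8.5) and 43262997 (E9.5) had pileups of 18 and 14 with intervals of 10.7 to 28.5 and 7.65 to 23.5. These intervals overlap, as would those of any window peaks.

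Gm8127 (43288288 to 43293863) held 3 peaks in each list. The pair just below its body, which runs from 43286355 to 43286964 at E8.5, had pileups of 15 (8.40 to 24.7) and 19 (11.4 to 29.7) and folds of 3.95 and 4.81. Its q-values were 0.0184 and 3.26e-05, and its summits lay 15 bp apart. This was the highest-ranked pair of the 10 genes, by the mean percentile of fold in the lists, and ranked 3 in the window. A pair inside the body had pileups of 12 and 13 and folds of 2.70 and 2.80, with a q of 1 in both lists. The same peaks also lie in or near the long non-coding gene Gm9732, whose body overlaps that of Gm8127 and which took in 6 and 11 peaks.

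Gm8138 (43410821 to 43416703) held 3 peaks at E9.5, with pileups of 19, 14 and 11 and folds of 4.48, 3.46 and 2.40 in order of position. The first of these (43408138 to 43409335, q of 0.000141) overlapped a weaker E8.5 peak (pileup 9, fold 2.43) that lay 2159 bp from the body, just outside the 2 kb limit. The absence of Gm8138 from the E8.5 count thus turns on that limit. Gm5799 (43543631 to 43551193) held a single E8.5 peak (43545712 to 43546132). Its pileup was 11 (5.49 to 19.7), its fold 2.40 and its q 1, and no E9.5 peak lay within 2 kb of the gene.

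No peak of either list overlapped any of the 17 start sequences that RefSeq gives for 12 protein-coding genes of the window. Some of these sequences overlap each other, such as those of Gm21154, whose starts lie 2 bp apart. The share of all start sequences that a peak overlaps was not computed. Even a peak within 2 kb of the gene body was found for only 0.964% (E8.5) and 1.20% (E9.5) of all protein-coding genes. Nothing is read from the count. The nearest peaks were 234 bp from the inner start of Gm8126 at E8.5 and 430 bp from it at E9.5, and 514 bp from the start of Gm8138 at E9.5. To compare copies, each start printed above was aligned with the first of its set, and peaks were placed by their distance in the direction of transcription from the equivalent base. Around the inner start of Gm8126, 5 E8.5 and 7 E9.5 summits lay within 10 kb, and around its copy at Gm5799 1 E8.5 summit and none at E9.5. The Gm5799 peak lay 2122 to 2542 bp downstream of the start, and an E8.5 peak of Gm8126 lay 2251 to 2590 bp downstream, so these E8.5 peaks, with pileups of 11 and 12, overlap in their distance from the start. No E9.5 peak lay at that distance from either start. Sequence beyond the start sequences was not compared, so whether the copies match at that distance was not tested. How reads that match several copies equally well were placed is not stated in the labels or file headers, and their part in these peaks was not tested.

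**Figure D3:**
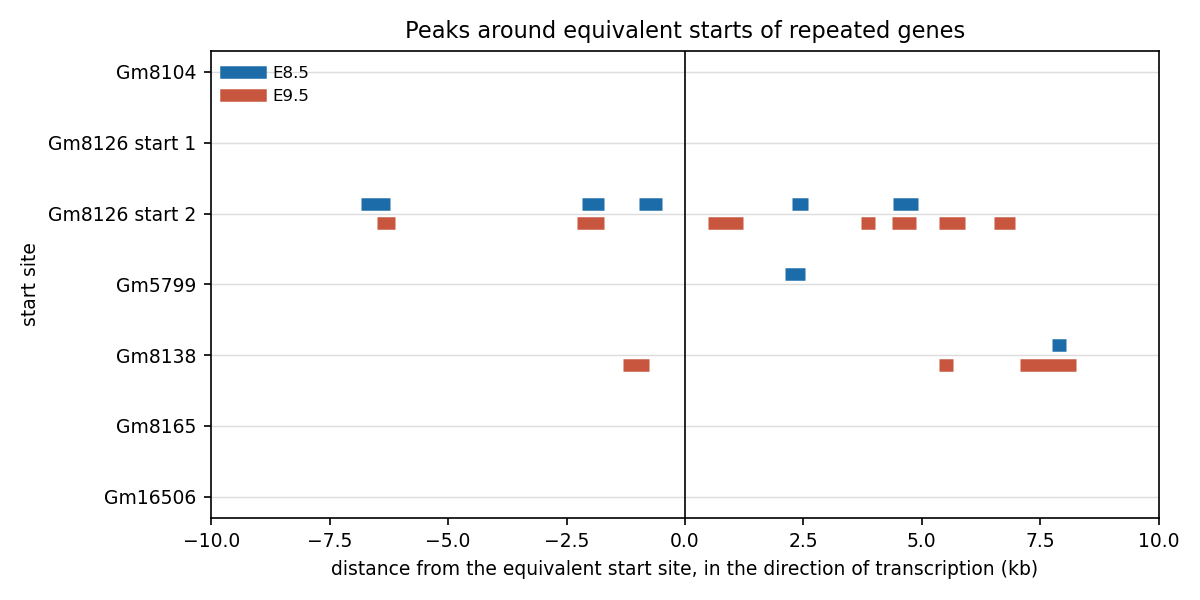
Extent of each peak relative to equivalent start sites, with the distance in kb in the direction of transcription on the horizontal axis and the 7 starts printed above in rows. E8.5 peaks are drawn above and E9.5 peaks below each line (start 1 of Gm8126 is the outer and start 2 the inner start). Gm8126 start 2 and Gm5799 each have an E8.5 peak that covers 2251 to 2542 bp downstream, and Gm8104, Gm8126 start 1, Gm8165 and Gm16506 have no peak in this range.

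Genes with near-identical starts could differ in the number of peaks around them. Gm8138 had 1 E8.5 and 3 E9.5 summits within 10 kb of its start. Gm8165 and Gm16506, whose starts matched it at 99.0% and 96.8%, had none in either list. Gm8104 and the outer start of Gm8126 had none within 10 kb either. The guanine and cytosine content of the starts printed here ran from 40.3% to 50%, against a median of 52.7% over all 32851 RefSeq start sequences. The starts of Gm8094, which are not printed, stood at 50.7%, 49.3% and 59.3%, so not all starts of the gene set lay below that median.

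The largest group of peaks lay in and around Gm9597, a pseudogene of 78249 bp (43315773 to 43394021). It took in 19 E8.5 peaks (46.3% of those in the window, interval 30.7% to 62.6%) and 27 E9.5 peaks (43.5%, 31.0% to 56.7%), of which 16 and 20 overlapped a peak of the other list. Their pileups had medians of 15 and 16 fragments. 1700001F09Rik, a protein-coding gene inside the span of Gm9597, had 4 and 3 peaks within 2 kb. Gm21154, whose predicted body of 276362 bp overlaps Gm8138, Gm21162, Gm5799, Gm10375 and Gm8165, took in 8 and 13 peaks. Gm21162 had 0 and 1. Per 10 kb of extended body, Gm9597 had 2.31 peaks (E8.5) and 3.28 (E9.5). The values were 4.24 and 3.18 for 1700001F09Rik, 3.13 in each list for Gm8127, and 0.285 and 0.464 for Gm21154. Among these genes Gm9597 thus stood highest by this measure at E9.5 but not at E8.5. Only 3 peaks in each list lay farther than 2 kb from any annotated gene or pseudogene.

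No peak was called within 2 kb of the ribonuclease genes. Ear1, Ear10 and Ang5 had none within 2 kb in either list, and the nearest peaks were 272633, 376766 and 410937 bp away at E8.5 and 222244, 326377 and 360548 bp away at E9.5. Among 20 genes of the ribonuclease A family, to which the eosinophil ribonucleases and angiogenins belong, none had a peak within 2 kb in either list. With 0.964% (E8.5) and 1.20% (E9.5) of all protein-coding genes having one, a count of 0 of 20 is near that share. Within 50 kb, 1 of the 20 had an E8.5 peak and none had an E9.5 peak. The share of all genes at that distance was not computed, so nothing is read from this.

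Overlap between the stages was common in the window. With 1 shared base as the limit, 28 of 41 E8.5 peaks met one of E9.5 (68.3%, interval 51.9% to 81.9%), beside 27.9% in the whole E8.5 list. In the other direction 32 of 62 met one of E8.5 (51.6%, 38.6% to 64.5%), beside 22.8% in the whole E9.5 list. Outside the window the shares were 26.2% (23.5% to 29.1%) and 21.2% (18.9% to 23.7%). In the densest block they were 72.2% and 56.6%, and in the second block 40% and 33.3%. Window peaks were also longer, with median lengths of 485 bp (E8.5) and 501 bp (E9.5), beside 327 and 346 bp elsewhere. The window was chosen for its number of peaks in both lists, so its overlap is not independent of that choice. Nothing is read from the difference to the rest of the lists. The part of length, crowding and the shared input library in the overlap was not tested.

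**Figure D4:**
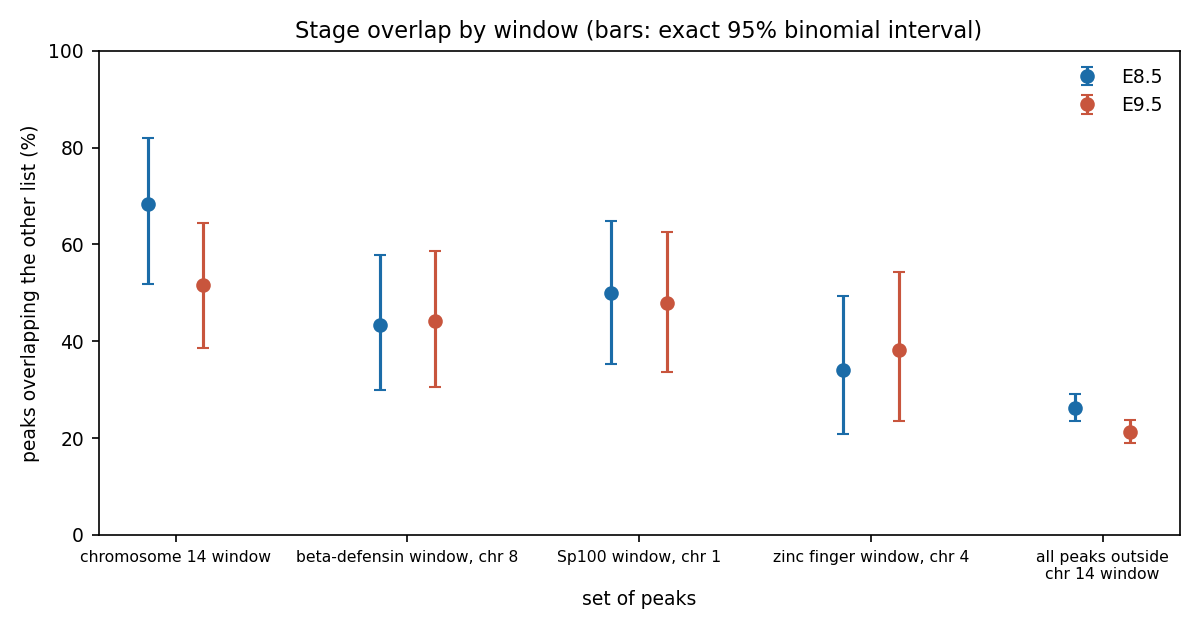
Share of peaks, in percent, that overlap a peak of the other list by at least 1 bp, for the chromosome 14 window, 3 other crowded windows and all peaks outside the chromosome 14 window. Points are shares and bars are exact 95% binomial intervals. The chromosome 14 window stands at 68.3% and 51.6%, and its E9.5 interval overlaps those of the other crowded windows.

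The overlapping peaks formed 33 pairs. The pileup was higher at E9.5 in 18 pairs, higher at E8.5 in 12 and equal in 3, with differences (E9.5 minus E8.5) from -8 to 10 fragments and a median of 1. The Poisson intervals of the pileups overlapped in all 33 pairs. This was fixed by the range of the window pileups. Even the intervals of the lowest, 9 (4.12 to 17.1), and of the highest, 24 (15.4 to 35.7), overlap. The measure therefore could not separate the stages in any pair, and nothing is read from it. The fold was higher at E9.5 in 17 pairs and higher at E8.5 in 16. Summits of a pair lay 6 to 3082 bp apart, with a median of 198 bp.

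The highest-ranked pair lay in Gm9597 at 43335866 to 43337588 (E8.5), with pileups of 18 and 20, folds of 4.52 and 4.77 and q-values of 0.000278 and 1.84e-05. The second, at 43333052 to 43335487, also lay in Gm9597, with pileups of 17 and 17 and folds of 4.44 and 4.19. The pair at Gm8127 came next. The fourth (43385092 to 43385437) had pileups of 13 and 18 and folds of 3.46 and 4.59. The fifth joined the E8.5 peak of the first pair to a neighbouring E9.5 peak (pileup 13, fold 3.33), and the sixth (43322549 to 43324324) had pileups of 20 and 16 and folds of 4.54 and 3.21. Of these 6 pairs, 5 lay in or within 2 kb of Gm9597, as did 21 of all 33, and the longest E8.5 peak of the window, 2436 bp, belonged to the second pair.

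**Figure D5:**
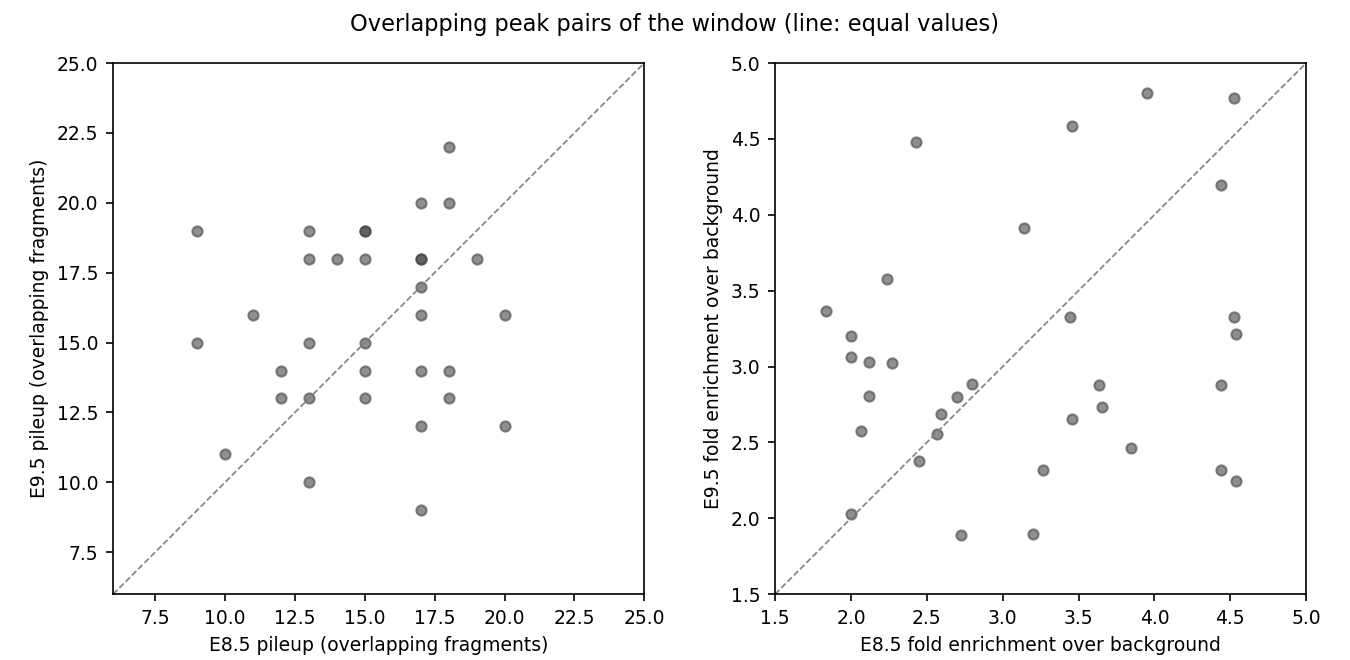
Values of the 33 overlapping pairs, E8.5 on the horizontal and E9.5 on the vertical axis, as pileup in fragments on the left and as fold enrichment on the right. The dashed line marks equal values, and the points lie on both sides of it, 18 above and 12 below for the pileup.

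Among window peaks without a partner, the highest folds at E8.5 were 3.30 near Gm52137 (43530870, pileup 13), 3.30 at 43270624 with no gene within 2 kb (pileup 18) and 2.98 at 43309304, again with no gene within 2 kb (pileup 14). At E9.5 they were the Gm8126 peak of 4.03 described above and a pair of peaks near Gm52137, a pseudogene in the second block, with 3.97 at 43528153 (pileup 21, 13.0 to 32.1) and 3.76 at 43526759 (pileup 18). None of the 3 E8.5 peaks had a q-value of at most 0.05, and all 3 E9.5 peaks did. A missing partner means only that no peak was called, since the lists hold no values between peaks.

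Pileups in the window were moderate and even. They ran from 9 to 20 at E8.5 (median 14) and from 9 to 24 at E9.5 (median 15), beside a median of 11 in either list outside the window. Folds had medians of 2.70 (E8.5, quartiles 2.40 and 3.30) and 2.89 (E9.5, 2.49 and 3.33), beside 2.62 in both lists outside the window. The q-value was 0.05 or less for 6 peaks of E8.5 (14.6% of 41, 5.57% to 29.2%), beside 12.8% in the whole list. It was so for 13 peaks of E9.5 (20.97% of 62, 11.7% to 33.2%), again beside 12.8%. All 6 of the former met an E9.5 peak, and 7 of the 13 latter met an E8.5 peak. The share for all peaks of such q in the whole lists was not computed, so nothing is read from these counts. Peaks with a q of 1 made up 26 of the 41 and 32 of the 62.

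The background at the summit, recovered from pileup and fold, was above the library's lowest value in most window peaks. It stood at that lowest value, 3.05 (E8.5) or 3.14 (E9.5) fragments, for 5 window peaks (12.2%) and 6 window peaks (9.68%), beside 46.3% and 48.7% of all peaks. The median background in the window was 4.04 and 4.21 fragments, and the highest 8.81 and 11.99. In 17 of the 41 (41.5%) and 22 of the 62 peaks (35.5%) it was, within 0.005, a whole multiple of 0.80 fragments. In the whole lists, with the peaks of highest background left out, it was so for 28.2% of 971 and 29.05% of 1205 peaks. The step of 0.80 is the number that results when the ratio of kept pull-down to kept input fragments is divided by 2. In the window, the backgrounds at a whole multiple were 4 to 11 (E8.5) and 4 to 15 (E9.5) such steps. Peaks at the lowest background were not counted as multiples but stayed in the totals. They made up a larger part of the whole lists than of the window. The shares of multiples are therefore not a like comparison, and nothing is read from their difference. The part of the input library in these peaks was not tested.

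Beside the most alike windows, the chromosome 14 window had the lowest median pileups. The beta-defensin window on chromosome 8 (20 to 21 Mb) held 53 and 52 peaks with median pileups of 17 and 18 and median backgrounds of 5.70 and 6.31. The Sp100 window on chromosome 1 (85 to 86 Mb) held 48 and 50 peaks with median pileups of 25 and 25 and backgrounds of 9.87 and 9.65. The zinc finger window on chromosome 4 held 47 and 42 peaks with median pileups of 15 and 16.5 and backgrounds of 4.98 and 6.01. Shares of peaks that overlapped the other list were 43.4% and 44.2%, 50% and 48%, and 34.0% and 38.1% in that order, and their intervals overlapped that of the chromosome 14 window at E9.5. In the E8.5 list the interval of the zinc finger window (20.9% to 49.3%) lay below that of the chromosome 14 window. These windows were chosen for their peaks as well, and the differences were not tested.

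The edges of the window fell in stretches with few peaks. The nearest E8.5 peaks outside it lay at 42813355 (pileup 10, fold 2.71) and 51292703 (pileup 9, fold 2.47), and the outermost inside it at 43251779 (pileup 17, fold 3.27) and 43545712 (pileup 11, fold 2.40). At E9.5 the nearest outside lay at 42838724 (pileup 9, fold 2.14) and 45995222 (pileup 12, fold 2.60), and the outermost inside at 43026369 (pileup 11, fold 2.90) and 43596148 (pileup 10, fold 2.202). Of the peaks on chromosome 14 the window held 55.4% of 74 (E8.5) and 56.9% of 109 (E9.5), and the next fullest window of 1 Mb, from 41 to 42 Mb, held 8 and 4.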

How the data were processed

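6mA MeDIP-seq peak lists of 1 E8.5 and 1 E9.5 brain library were used as deposited. Per the submitters' processing notes, reads were trimmed with cutadapt 1.9.2, aligned with Bowtie2 2.2.4 and placed on mm10. Per the file headers, the authors called peaks for each library in paired-end mode with MACS 2.1.1.20160309 at a p-value of 0.01, an effective genome size of 1.27e+09 and at most 2 duplicates per position, against 1 common input. The deposited pileup is a signal, the fragment coverage at the summit, with no scaling stated. The deposited fold is the authors' ratio of pileup to local background, taken here to have 1 added to each, as MACS defines it. The deposited p-value and q-value columns hold −log10 values, although a header line says that q was not calculated. The p threshold is uncorrected, and 1 input library served both lists.

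Peaks were assigned by midpoint to the window and by any overlap to RefSeq gene bodies (49943 placed genes, GRCm38.p6) extended by 2 kb. Overlap between lists needed at least 1 bp. Start sequences were compared by local alignment (Biopython 1.88) and searched against the whole table with blastn 2.17.0 at 90% identity over 150 bases. Intervals are Clopper-Pearson for shares, Poisson for pileups and, for other settings, by order statistics for medians, at 95%, and PCR copies are not independent molecules. Software was Python 3.11.15, scipy 1.17.1, numpy 2.4.6, matplotlib 3.10.9 and pandas 2.3.3. The overlap and alignment steps were tested on simulated data.

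The 10 genes, the windows and the lists were chosen with earlier results of these data known. Genes and peaks are named by rule: the 10 genes and 3 neighbours, other coding or long non-coding genes of the window with a peak, the 6 overlapping pairs with the highest mean percentile of fold, and the 3 partnerless peaks of each list with the highest fold. Gm9597 and Gm52137, pseudogenes outside that rule, were named after their values were seen. The sequence of the peaks was not analysed here. Alternatives covered the q-value, the fold, the overlap, the gene extension, the background and the distance measure.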

Additional observations from a re-analysis of the deposited data

How the results depend on the processing

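No paired analysis was possible because each stage has 1 library and no test was made. Of 40 values recomputed under other settings, 30 stayed within 1.5 times of a count or spacing, or within the exact 95% interval of a share or median, and 10 did not. Limiting the window to q-values of 0.05 or less left 6 E8.5 and 13 E9.5 peaks, and to the upper 50% of folds 21 E8.5 peaks. When both lists were limited to that q, the shares that overlapped were 50% of 6 E8.5 peaks and 23.1% of 13 E9.5 peaks, fewer peaks being compared. At the lowest background 33.3% of 6 E9.5 peaks met an E8.5 peak, the median fold of 5 E8.5 peaks was 3.46 and the median pileup of 6 E9.5 peaks was 11, again few peaks. With genes extended by 10 kb, the 10 genes took in 17 E8.5 and 25 E9.5 peaks. The number of the 10 genes with a peak stayed at 2 to 4 (E8.5) and 3 to 4 (E9.5) under every extension tried and the q limit. The 6 alternatives chosen after seeing the data, other gaps between blocks and other identities for copies of the Gm16506 start, all stayed within 1.5 times. With gaps over 100 kb, however, the densest block took in the second block and held 41 E8.5 and 60 E9.5 peaks. The split into blocks thus depends on the gap chosen. Copies of the Gm5799 start were not among these alternatives. Their count was 6 genes at 90% identity, 9 at 80% and 1 at 95%, so it depends on the identity chosen. Pileups of 9 to 24 fragments limit every single peak, and no peak list gives a level where no peak was called.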

Other observations

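Copies of these gene starts also lie outside the window. Across all RefSeq start sequences, 31 other genes had a start with at least 90% identity to that of Gm16506 over at least 150 bases. All 31 lay on chromosome 14, between 41 and 52 Mb, 18 of them from 41 to 43 Mb and 4 in the window. Of the 31, 1 gene had an E8.5 peak within 2 kb and 5 had an E9.5 peak, beside 0.741% and 0.877% of all placed genes. The gene with an E8.5 peak was Gm6482, and those with E9.5 peaks were Gm7945, Gm17026 and Gm21977, with 1 peak each, and in the window Gm21162 with 1 and Gm8138 with 3. They were named after their values were seen. For Gm5799, 6 other genes passed the same limits, and at 95% identity only Gm8126 remained. These counts are descriptions, the start table is not complete, and no test was made.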
